A study of Mus musculus with 9 samples.

Results

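Transcripts of 10 enzyme genes of serine synthesis and of the methionine cycle were followed in whole mouse liver: Phgdh, Psat1 and Psph of serine synthesis, Shmt2 and Mthfd2 of mitochondrial one-carbon metabolism, and Mat1a, Mat2a, Gnmt, Bhmt and Cbs of the methionine cycle. They were taken by symbol from the deposited count table. All 10 of 10 were found among its 55401 genes and all 10 passed the filter on low counts, which 15717 genes passed. RNA was sequenced from 9 livers, all labelled as female: 3 healthy, 3 bearing untreated HCC and 3 bearing HCC treated with miR-22. The protocol given for all 9 samples describes the mice as 6 weeks old when obtained, healthy ones included. HCC mice received, by hydrodynamic injection into the tail vein, Sleeping Beauty transposon plasmids for myristoylated AKT (pT3-EF1α-HA-myr-AKT, driven by the EF1α promoter) and activated NRAS (pT/Caggs-Nras-v12, driven by the CAGGS promoter), which carry the oncogenes into hepatocytes. The protocol text also lists a plasmid for N90-β-catenin, whereas the design text names RAS/AKT tumors. At week 1 the mice received AAV8, a virus that infects liver, that either encoded miR-22 (the treated tumors) or was blank (the untreated tumors). Untreated HCC therefore means tumor and empty virus. Livers were harvested at week 5, that is 4 weeks after the virus. Healthy livers received neither plasmids nor virus, and no age at harvest is given for them. The strain is C57BL/6 in one label field and FVB/N in the protocol, and the virus dose differs between the labels and the paper's methods. The labels do not tie each library to a separate animal, so p-values measure the spread between these samples.

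Serine synthesis branches off glycolysis: PHGDH oxidizes 3-phosphoglycerate, PSAT1 adds the amino group and PSPH removes the phosphate. Serine hydroxymethyltransferase (SHMT2 in mitochondria) passes a carbon from serine to folate, and MTHFD2 oxidizes the resulting folate. The methionine cycle makes S-adenosylmethionine (SAM), the methyl donor of most methylation reactions, through methionine adenosyltransferases. Adult hepatocytes mainly use the MAT1A enzyme, while MAT2A serves other tissues and growing liver. GNMT spends SAM on glycine, BHMT returns homocysteine to methionine with betaine, and CBS passes homocysteine and serine on to cysteine. A shift from MAT1A to MAT2A and the induction of serine synthesis are known features of liver cancer.

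Libraries held 16664659 to 23908392 counts, and TMM factors, which correct for composition, ranged over 0.865 to 0.872 (healthy), 1.12 to 1.22 (untreated HCC) and 0.942 to 1.03 (miR-22-treated HCC). All 12 hepatocyte markers were present, and their summed level in CPM (TMM-normalized counts scaled to library size) was 157833 to 169792 (healthy), 90802 to 106804 (untreated HCC) and 119464 to 137501 (miR-22-treated HCC). Of these markers 10 of 12 were lower and 1 was higher in untreated HCC than in healthy livers, beside 18.1% and 22.7% of all tested genes. The 5 cholangiocyte markers summed to 5.77 to 10.1, 102 to 184 and 40.5 to 72.5 CPM in that order of groups. Sox9 (mean 87.1 CPM) and Cftr (30.9 CPM) made up most of that sum in untreated HCC. Of the 5, 4 rose in untreated HCC. Krt19 did not pass the test (2.15 CPM in healthy livers, 3.96 in untreated HCC, adjusted p = 0.151, edgeR). The 5 markers of proliferating cells summed to 9.30 to 14.2, 139 to 178 and 87.0 to 129 CPM. In bulk tissue, fewer cells of a type and less RNA per cell cannot be told apart.

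Promoter sequence is shown for the 3 members with the largest rises and the member with the largest fall in HCC. It comes from a set of RefSeq promoters that held 9 members (10 promoters, since Psat1 has 2 starts) and lacked Mat1a. Each run is the 250 bases before the RefSeq start, read 5′ to 3′ on the gene's minus strand, and matches GRCm39 exactly once on its chromosome. Capitals mark CCAAT, the motif of the NF-Y factor, or its reverse complement ATTGG. The Phgdh window is chr3:98247286-98247535, the Psat1 window (first start) chr19:15902424-15902673, the Mthfd2 window chr6:83294587-83294836 and the Gnmt window chr17:47040092-47040341. In GENCODE M39 the first 3 lie inside their own gene, upstream of the RefSeq start but downstream of longer transcripts, with 21, 0 and 18 of the 250 bases in exons. The Gnmt window lies within Gm65860, a lncRNA gene on the opposite strand.
Phgdh: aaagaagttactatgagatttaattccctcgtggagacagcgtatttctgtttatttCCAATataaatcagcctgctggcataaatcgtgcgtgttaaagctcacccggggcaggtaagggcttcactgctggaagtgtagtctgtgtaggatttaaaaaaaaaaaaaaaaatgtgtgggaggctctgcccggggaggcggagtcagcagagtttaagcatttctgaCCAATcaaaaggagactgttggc
Psat1: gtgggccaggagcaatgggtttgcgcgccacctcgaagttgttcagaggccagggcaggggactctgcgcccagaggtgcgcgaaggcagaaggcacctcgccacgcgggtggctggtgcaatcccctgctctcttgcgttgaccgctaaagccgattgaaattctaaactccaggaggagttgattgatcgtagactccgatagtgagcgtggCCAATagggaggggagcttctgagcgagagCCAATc
Mthfd2: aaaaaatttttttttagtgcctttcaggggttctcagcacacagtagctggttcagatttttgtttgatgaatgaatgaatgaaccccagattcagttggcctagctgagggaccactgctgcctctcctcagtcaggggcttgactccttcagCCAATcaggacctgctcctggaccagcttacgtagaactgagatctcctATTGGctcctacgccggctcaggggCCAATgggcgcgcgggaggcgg
Gnmt: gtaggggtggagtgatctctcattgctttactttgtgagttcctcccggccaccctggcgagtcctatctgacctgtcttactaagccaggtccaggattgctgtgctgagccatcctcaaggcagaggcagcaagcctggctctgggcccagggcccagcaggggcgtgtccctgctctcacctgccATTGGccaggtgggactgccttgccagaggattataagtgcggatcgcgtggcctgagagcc
In the full RefSeq windows of 300 bases, which run on 50 bases past the start, CCAAT on either strand matched 3 times in Mthfd2 and at the first Psat1 start, 2 times each in Phgdh, Psph, Bhmt and Cbs, and 1 time each in Gnmt and Mat2a. Shmt2 and the second Psat1 start had no match. Of 32851 mouse promoters of that length, 37.4% held at least 1 match, 11.7% at least 2 and 3.37% at least 3. The composite site bound by ATF4 with its partners, searched as TGATGNAA on both strands, matched no member promoter and 3.97% of all promoters. The E-box CACGTG matched Cbs alone (7.15% of all promoters). The TATA motif TATAAA matched Mat2a, from 32 bases before the start, and Phgdh, from 189 bases before it (13.6% of all promoters). The TATAAA match in Phgdh shares a base with a CCAAT match. These are matches of letters and no measure of binding.

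The delivered agent, mmu-miR-22-3p, is encoded on chromosome 11. Its mature RefSeq sequence follows, with the seed (bases 2 to 8) in capitals.
mmu-miR-22-3p: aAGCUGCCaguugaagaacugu
The complement of this seed, GGCAGCT, occurs in the GENCODE M39 3′ UTR of 4 of the 10 members: 2 times in Mat1a (UTR of 1807 bases), and 1 time each in Mat2a (1494 bases), Cbs (4296 bases) and Mthfd2 (955 bases). Among tested genes with an annotated 3′ UTR it occurs in 16.9% (2287 of 13559), and the median length of all these UTRs is 1339 bases. A match of the seed is a description of the sequence and not a measured target.

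Of the serine synthesis genes, Phgdh and Psat1 were nearly silent in healthy livers and present in every HCC liver, whereas Psph was present in all 9. Phgdh (ENSMUSG00000053398.11, chromosome 3, 98220484 to 98255047 in GRCm39), the first and committed enzyme, had 0.566, 0.315 and 0.440 CPM in healthy livers, that is 9, 5 and 8 counts. It had 41.6, 54.0 and 38.7 CPM in untreated HCC and 21.4, 14.3 and 30.3 CPM in miR-22-treated HCC. No liver of one group fell within the range of another. Phgdh rose 100.2-fold in untreated HCC (log2 fold change 6.65, SE 0.34, adjusted p = 2.5e-08, edgeR), the 136th largest rise of 15717 genes.

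Psat1 (ENSMUSG00000024640.9, chromosome 19, 15882039 to 15924701), the aminotransferase of the second step, had 0.692, 0.504 and 1.26 CPM in healthy livers, 44.0, 50.2 and 41.7 in untreated HCC and 18.6, 19.0 and 31.7 in miR-22-treated HCC. Its groups did not overlap either, and it rose 53.7-fold in untreated HCC (log2 fold change 5.75, SE 0.29, adjusted p = 2.4e-08). Psph (ENSMUSG00000029446.14, chromosome 5, 129841925 to 129864513), the phosphatase of the last step, had healthy values of 4.65, 4.79 and 6.76 CPM. It had 13.3, 15.9 and 13.5 CPM in untreated HCC and 9.95, 11.0 and 12.8 in miR-22-treated HCC. Psph rose 2.62-fold in untreated HCC (log2 fold change 1.39, SE 0.17, adjusted p = 2.0e-05), the smallest rise of the 3 steps. The sums of cholangiocyte and proliferating cell markers above also rose in untreated HCC. So did those of neutrophil, erythroid, stellate cell and fibroblast, and macrophage markers, given at the end. The part of any of these cells in the rise was not tested.

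The mitochondrial one-carbon pair diverged. Mthfd2 (ENSMUSG00000005667.8, chromosome 6, 83282673 to 83302890), found mainly in embryonic and tumor tissue, had 0.629, 0.378 and 1.15 CPM in healthy livers (10, 6 and 21 counts). It had 13.5, 15.0 and 12.3 CPM in untreated HCC and 6.75, 5.10 and 11.4 in miR-22-treated HCC. The untreated HCC livers lay above all livers of the other groups, and Mthfd2 rose 18.4-fold over healthy livers (log2 fold change 4.20, SE 0.36, adjusted p = 1.1e-06). Shmt2 (ENSMUSG00000025403.5, chromosome 10, 127352266 to 127358323), which supplies the folate that MTHFD2 uses, went the other way. Its level was 187, 189 and 195 CPM in healthy livers, 85.3, 80.1 and 114 in untreated HCC and 126, 129 and 119 in miR-22-treated HCC, again with no overlap between groups. Shmt2 fell to 48.9% of its healthy level in untreated HCC (log2 fold change −1.03, SE 0.12, adjusted p = 1.3e-05). Scaled to the summed hepatocyte markers, its log2 fold change was −0.32, under the fold threshold. Within a library, Mthfd2 had 1 count for every 169 to 501 of Shmt2 in healthy livers and for every 5.34 to 9.27 in untreated HCC.

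**Figure D1:**
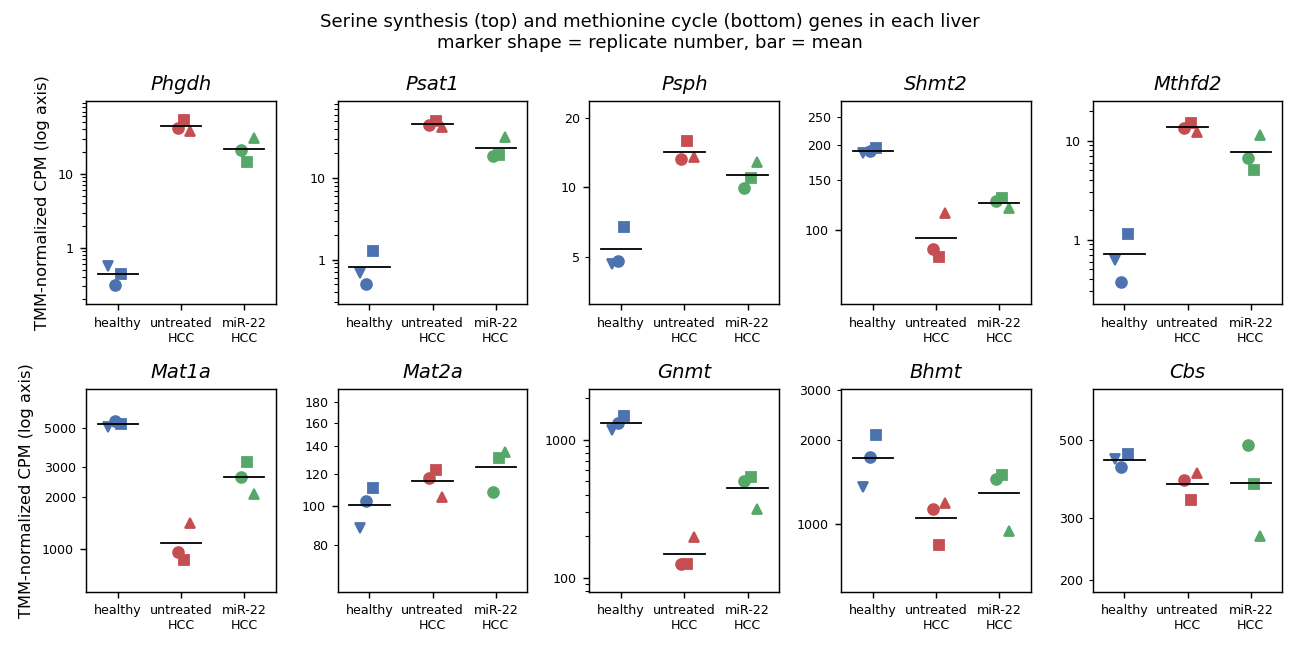
TMM-normalized CPM (log axes) of the 10 genes in each liver, serine synthesis and mitochondrial folate genes above and methionine cycle genes below. Points are livers, with a marker shape per replicate number, and bars are group means over 3 livers. Phgdh, Psat1 and Mthfd2 lie at or under 1.26 CPM in healthy livers and at or above 5.10 CPM in every HCC liver, and miR-22-treated replicate 4 (green triangle) lies closest to the untreated HCC mean for 8 of the 10 genes.

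Of the methionine adenosyltransferases, the hepatocyte form fell and the other did not pass the test. Mat1a (ENSMUSG00000037798.7, chromosome 14, 40826926 to 40846384) had 5079, 5536 and 5323 CPM in healthy livers, 963, 874 and 1428 in untreated HCC and 2627, 3182 and 2092 in miR-22-treated HCC. The 3 groups did not overlap. Mat1a fell to 20.5% of its healthy level in untreated HCC (log2 fold change −2.29, SE 0.21, adjusted p = 1.5e-06). Mat2a (ENSMUSG00000053907.10, chromosome 6, 72409779 to 72416684) had 88.1, 103 and 111 CPM in healthy livers, 117, 122 and 105 in untreated HCC and 108, 131 and 136 in miR-22-treated HCC. These ranges overlapped, and the log2 fold change in untreated HCC was 0.19 (95% interval −0.09 to 0.47, adjusted p = 0.173). That value depends on the scale: with total counts in place of TMM it was 0.62 (adjusted p = 7.5e-04) and scaled to hepatocyte markers 0.92 (adjusted p = 7.0e-05), both past the thresholds, while those scalings moved the median of all genes by 0.43 and 0.73.

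A ratio of 2 genes within a library does not depend on that scale. Mat2a had 1 count for every 57.6, 53.8 and 48.0 counts of Mat1a in the healthy livers, for every 8.21, 7.15 and 13.6 in untreated HCC and for every 24.3, 24.3 and 15.4 in miR-22-treated HCC. The mean log2 ratio of Mat2a to Mat1a was −5.73 ± 0.13 (SD, n = 3) in healthy livers, −3.21 ± 0.49 in untreated HCC and −4.38 ± 0.38 in miR-22-treated HCC, so the ratio was 5.72-fold higher with untreated tumors than in the healthy group, and the groups did not overlap. Per kilobase of transcript, Mat2a made up 2.11% to 2.52% of the 2 transcripts together in the healthy group, 8.37% to 14.8% with untreated tumors and 4.85% to 7.44% after miR-22. Mat1a thus remained the more abundant transcript in all 9 livers. Mat2b, the regulatory subunit of the MAT2A enzyme, had a log2 fold change of −0.37 in untreated HCC (adjusted p = 0.0041), under the fold threshold of 1.5, and a value of the other sign with total counts (0.05) and hepatocyte-marker scaling (0.35).

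**Figure D2:**
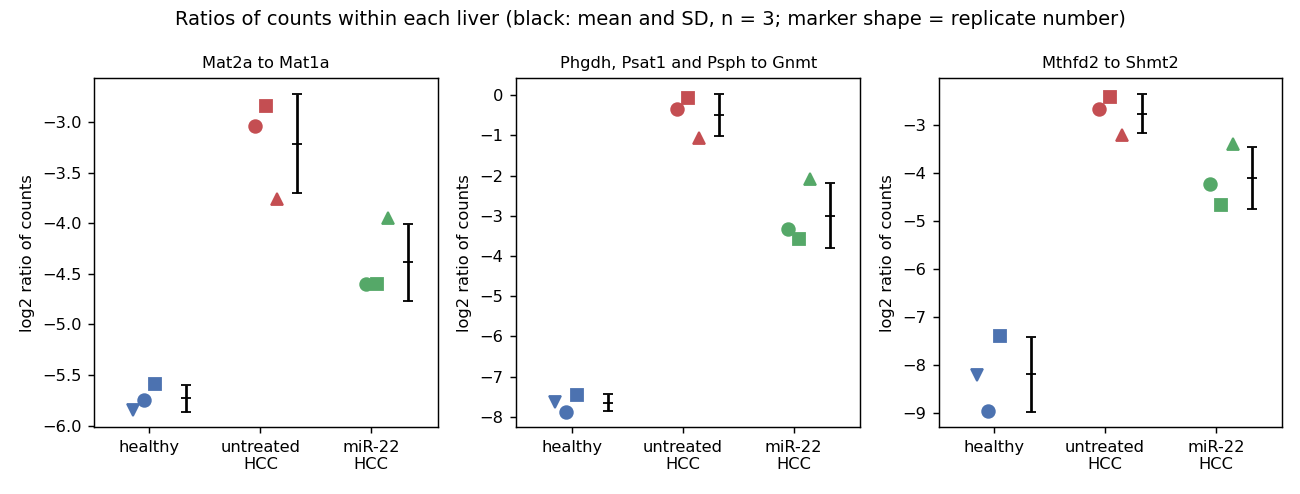
Log2 ratios of counts within each liver for Mat2a to Mat1a, for the sum of Phgdh, Psat1 and Psph to Gnmt, and for Mthfd2 to Shmt2. Points are livers, with a marker shape per replicate number, and black marks are the mean and SD over 3 livers. In each panel the untreated HCC livers are highest, the healthy livers lowest and the miR-22-treated livers between them.

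Of the enzymes that use SAM and homocysteine, Gnmt and Bhmt fell in untreated HCC and Cbs did not pass the test. Gnmt (ENSMUSG00000002769.9, chromosome 17, 47036587 to 47040107), which consumes SAM when it is in surplus, had 1166, 1312 and 1477 CPM in healthy livers, 126, 126 and 197 in untreated HCC and 501, 532 and 315 in miR-22-treated HCC. Its groups did not overlap, and it fell to 11.3% in untreated HCC (log2 fold change −3.14, SE 0.23, adjusted p = 2.8e-07), the 141st largest fall of 15717 genes. Scaled to the hepatocyte markers, Mat1a and Gnmt still fell, with log2 fold changes of −1.58 and −2.44. A few genes dominate the sum: Alb made up 62.5% of it in healthy livers and 46.6% in untreated HCC, where Trf had 30417 of 98524 CPM. Trf rose by 0.61, and the sum fell less (a log2 ratio of −0.72) than the median marker (−1.03). Tat, another of the markers, fell by 2.63, more than Mat1a. Together, Phgdh, Psat1 and Psph had 1 count for every 175 to 234 of Gnmt (healthy), for every 1.05 to 2.10 (untreated HCC) and for every 4.21 to 12.0 (miR-22-treated HCC).

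Bhmt (ENSMUSG00000074768.6, chromosome 13, 93753183 to 93774469), the betaine-dependent methyltransferase, had 1359, 1740 and 2079 CPM in healthy livers, 1127, 838 and 1186 in untreated HCC and 1443, 1490 and 944 in miR-22-treated HCC. All untreated HCC livers lay below the healthy ones, while the treated livers overlapped both. Bhmt fell to 60.9% in untreated HCC (log2 fold change −0.72, SE 0.21, adjusted p = 0.00978). The call was lost at a fold threshold of 2 and in 4 other fits: without healthy replicate 3 or without untreated replicate 3 the log2 fold change was −0.57 both times, under the fold threshold, with total counts it was −0.30 and scaled to hepatocyte markers −0.01. Cbs (ENSMUSG00000024039.15, chromosome 17, 31827868 to 31856646), the entry to transsulfuration, had 441, 418 and 456 CPM in healthy livers, 384, 336 and 403 in untreated HCC and 484, 375 and 267 in miR-22-treated HCC. The untreated HCC values lay below the healthy ones without passing the test (log2 fold change −0.23, 95% interval −0.65 to 0.19, adjusted p = 0.282), and the direction turned with total counts (0.19) and with hepatocyte-marker scaling (0.49). Cth, the next enzyme of transsulfuration, fell by 2.36 on the log2 scale (SE 0.23, adjusted p = 2.9e-06).

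Counted over the members, 4 of 10 rose in untreated HCC (Phgdh, Psat1, Psph and Mthfd2) where 22.7% of all tested genes did, and 4 of 10 fell (Mat1a, Gnmt, Bhmt and Shmt2) where 18.1% did. Mat2a and Cbs did not pass. Thus all 3 serine synthesis genes rose, the mitochondrial pair split, and of the 5 methionine cycle genes 3 fell and 0 rose. These counts depend on the scale. Mat2a also rose with total counts and with hepatocyte-marker scaling, where 38.1% and 55.2% of all tested genes rose. Bhmt lost its call in both, and Shmt2 with hepatocyte markers, where 9.49% and 6.41% of all genes fell. Per kilobase of transcript, Mat1a (1486 CPM per kilobase), Gnmt (1254) and Bhmt (693) were the most abundant members in healthy livers, followed by Shmt2 (83.0), Cbs (70.4), Mat2a (34.9) and Psph (2.22), and then Mthfd2 (0.343), Psat1 (0.313) and Phgdh (0.232), whose means differ by less than the larger SD of each pair. In untreated HCC Bhmt came first (422 ± 74.9, SD, n = 3), ahead of Mat1a (304 ± 83.2) and Gnmt (142 ± 39.0), with Bhmt above Mat1a by more than either SD. Cbs (60.1), Shmt2 (40.6), Mat2a (39.9), Phgdh (23.7), Psat1 (17.3), Mthfd2 (6.48) and Psph (5.85) followed, and there the means of Shmt2 and Mat2a, and those of Mthfd2 and Psph, differed by less than the larger SD of the pair.

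**Figure D3:**
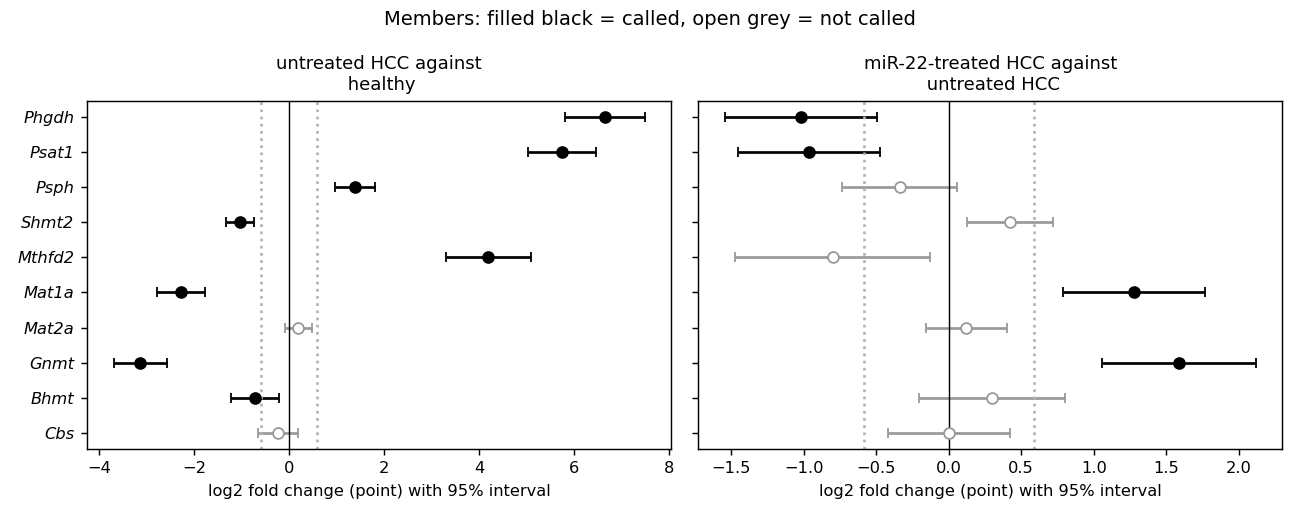
Log2 fold changes of the 10 members (points) with 95% intervals, untreated HCC against healthy livers on the left and miR-22-treated against untreated HCC on the right, on different axes. Black points passed both thresholds, open grey points did not, and dotted lines mark a fold change of 1.5. On the left 8 members passed, from −3.14 for Gnmt to 6.65 for Phgdh, and on the right 4 passed, from −1.02 for Phgdh to 1.59 for Gnmt.

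Treatment with miR-22 was compared with blank virus among the tumor-bearing livers. Mat1a and Gnmt rose and Phgdh and Psat1 fell. Mat1a rose 2.42-fold (log2 fold change 1.28, SE 0.20, adjusted p = 0.0011) and Gnmt 3.00-fold (1.59, SE 0.22, adjusted p = 5.3e-04). Phgdh fell to 49.4% of the untreated level (log2 fold change −1.02, SE 0.21, adjusted p = 0.0053) and Psat1 to 51.2% (−0.97, SE 0.20, adjusted p = 0.0048). So 2 of 10 members rose, where 8.32% of all tested genes did, and 2 of 10 fell, where 5.47% did. Both comparisons use the same untreated HCC livers.

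The other members did not pass with miR-22. Psph had a log2 fold change of −0.34 (95% interval −0.73 to 0.06, adjusted p = 0.156) although its treated livers all lay below the untreated ones, and passed in 1 other fit, scaled to hepatocyte markers (−0.72, adjusted p = 0.010). For Mthfd2 the value was −0.80 (95% interval −1.47 to −0.13, adjusted p = 0.0507), and treated livers were again all lower. It passed in 10 other fits and missed in 9, with an adjusted p of 0.020 by DESeq2, and without treated replicate 4 it was −1.19 (adjusted p = 0.0043). Leaving out healthy replicate 2 or 3 also brought it past the threshold (−0.81 both times, adjusted p = 0.049 and 0.042). Shmt2 was higher in every treated liver than in every untreated one, with an adjusted p of 0.024, but its log2 fold change of 0.42 is under the fold threshold. Without untreated replicate 4 it was 0.60 and passed, while it was 0.19 with total counts (adjusted p = 0.177) and 0.05 scaled to hepatocyte markers (adjusted p = 0.736). Bhmt (0.30, 95% interval −0.20 to 0.80), Mat2a (0.12, −0.16 to 0.40) and Cbs (0.00458, −0.42 to 0.43) had overlapping groups, and with hepatocyte-marker scaling all 3 turned negative (−0.09, −0.27 and −0.38). Hepatocyte markers themselves were higher with miR-22 for 6 of 12 genes and lower for none. Under that scaling Mat1a (0.90) and Gnmt (1.20) still rose. The sum of the markers rose less (a log2 ratio of 0.38) than the median marker (0.60). With TMM, Tat, one of the markers, rose by 2.52, more than Mat1a or Gnmt.

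Against healthy livers, 7 of the 10 members still differed in miR-22-treated HCC. Phgdh was 49.5-fold higher (log2 fold change 5.63, SE 0.35), Psat1 27.5-fold (4.78, SE 0.30), Mthfd2 10.5-fold (3.40, SE 0.37) and Psph 2.08-fold (1.05, SE 0.17), so 4 of 10 members were higher, beside 16.9% of all tested genes. Mat1a stood at 49.6% of its healthy level (−1.01, adjusted p = 0.0018), Gnmt at 34.1% (−1.55, adjusted p = 1.5e-04) and Shmt2 at 65.6% (−0.61, adjusted p = 0.0019), so 3 of 10 were lower, beside 7.05% of all genes. The Shmt2 call is close to the fold threshold and was lost at a fold threshold of 2 and in 4 other fits: without treated replicate 4 and with at least 10 counts required in every library the value was −0.58 both times, with total counts −0.42, and scaled to hepatocyte markers −0.27 (adjusted p = 0.052). Bhmt (−0.42, adjusted p = 0.132) and Cbs (−0.22, adjusted p = 0.342) did not pass. Mat2a, at 0.31 (95% interval 0.03 to 0.59), had an adjusted p of 0.05004 and did not pass, except when scaled to hepatocyte markers (0.65, adjusted p = 0.0030).

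Other genes of the same pathways were counted from 8 lists with 100 genes, all of which were tested. Their counts stand beside 22.7% of all tested genes higher and 18.1% lower in untreated HCC, and 8.32% higher and 5.47% lower with miR-22. Of 12 genes of the methionine cycle and betaine oxidation, 6 fell and 0 rose in untreated HCC, with a median log2 fold change of −0.56 beside 0.01 over all genes. Ahcy, which clears the S-adenosylhomocysteine left by methylation, fell by 2.59 on the log2 scale (SE 0.15, adjusted p = 6.0e-08) and rose by 1.60 with miR-22 (adjusted p = 4.7e-05). Sardh and Dmgdh, mitochondrial enzymes that break down sarcosine and dimethylglycine, the products of GNMT and BHMT, fell by 2.40 and 1.71. With miR-22, Sardh rose by 1.11 (adjusted p = 0.0020), one of 4 genes of the list that rose and 0 that fell. Bhmt2, a relative of Bhmt, fell by 1.29 in untreated HCC, a value of −0.57 and under the fold threshold with hepatocyte-marker scaling, and had 0.55 with miR-22, also under it, though it passed without untreated replicate 2 (0.59) or 4 (0.63) or treated replicate 4 (0.69).

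Among 8 SAM-dependent liver methyltransferases, 5 fell and 1 rose in untreated HCC, and 4 rose and 0 fell with miR-22. Inmt, indolethylamine N-methyltransferase, had the largest changes (−3.47, then 2.51 with miR-22), and without untreated replicate 4 they were −4.10 and 3.14. Nnmt, which methylates nicotinamide, came next (−2.78, then 1.56), and its call with miR-22 was lost without untreated replicate 3 (1.30), treated replicate 2 (1.32) or treated replicate 3 (1.38). Pemt, which makes phosphatidylcholine by methylating phosphatidylethanolamine with SAM, fell by 1.51. Of 11 genes of transsulfuration, cysteine and glutathione, 6 fell and 1 rose, and with miR-22 5 rose and 0 fell. Cth rose by 1.31 with miR-22, Cdo1, cysteine dioxygenase, fell by 1.73 and rose by 1.02 with miR-22, and Csad, of taurine synthesis, was the gene that rose in HCC, by 1.85, or by 2.52 without healthy replicate 1.

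Of the 17 folate genes, 5 were higher, a share near the 22.7% of all tested genes, and 8 lower, beside 18.1%, in untreated HCC. With miR-22, 5 were higher (8.32% of all genes) and 2 lower (5.47%). Aldh1l2, the mitochondrial formyltetrahydrofolate dehydrogenase, rose by 3.28 in untreated HCC and fell by 1.01 with miR-22, a call lost without untreated replicate 2 (adjusted p = 0.063), untreated replicate 3 (−0.88) or treated replicate 3 (−0.79). Its cytosolic relative Aldh1l1 fell by 1.99 in untreated HCC. The cytosolic Shmt1 fell by 1.58, as did Shmt2 above, and rose by 0.68 with miR-22, a call lost with total counts (0.45) and with hepatocyte-marker scaling (0.30). The mitochondrial Mthfd2l and Mthfd1l rose by 1.46 and 1.51 in untreated HCC, with values of −0.12 and −0.31 with miR-22 that did not pass, although Mthfd1l passed with hepatocyte-marker scaling (−0.69). Slc25a32, the mitochondrial folate carrier, rose by 1.39 with miR-22.

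Serine and glycine uptake and breakdown (14 genes) showed 2 higher and 7 lower in untreated HCC, and 4 higher and 1 lower with miR-22. Sds, serine dehydratase, which turns serine into pyruvate, fell by 2.35 and rose by 2.22 with miR-22, and Slc38a2, an amino acid transporter, rose by 1.16 with miR-22. Agxt, which transaminates glyoxylate and serine, and Gcat, of threonine breakdown, fell by 1.59 and 1.54. Polyamine synthesis and methionine salvage (12 genes) had 2 higher and 1 lower in untreated HCC, shares under the 22.7% and 18.1% of all tested genes, and none called with miR-22 (0 of 12). Amd1, which decarboxylates SAM for polyamines, rose by 1.17, Sat1, which acetylates polyamines, rose by 0.59, a call lost without healthy replicate 2 (0.49) or 3 (0.58), untreated replicate 2 (0.48) or treated replicate 2 (0.58), and Azin1, an antizyme inhibitor, fell by 1.20. Purine synthesis (11 genes) had 1 higher and 1 lower, also under those shares: Impdh1, of guanine nucleotide synthesis, rose by 2.04 and fell by 0.69 with miR-22, the latter call lost without untreated replicate 2 (−0.68) or 3 (−0.62) or treated replicate 2 (−0.69) or 3 (−0.52), and Ppat, its first committed enzyme, had −0.62, a call lost without healthy replicate 3 (−0.50) and with total counts (−0.20) and of the other sign with hepatocyte-marker scaling (0.10).

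Of 15 genes for the transcription factor ATF4, which activates serine synthesis in amino acid shortage, and its targets, 12 rose and 0 fell in untreated HCC, beside 22.7% and 18.1% of all tested genes, with a median log2 fold change of 2.03 beside 0.01. Atf4 itself was not among them (−0.06, adjusted p = 0.560), though the value was 0.36 with total counts and 0.67, past both thresholds, with hepatocyte-marker scaling. Slc7a11, the cystine transporter, had 0 counts in all 3 healthy livers and 4.10 CPM in untreated HCC, at least 21.7-fold higher than the floor of 3 counts per library. Asns, asparagine synthetase, rose by 5.92 (6.50 without healthy replicate 2) and Aldh18a1, of proline synthesis, by 4.46. With miR-22, 4 of the 15 fell and 1 rose, beside 5.47% and 8.32% of all genes: Asns fell by 0.69 (adjusted p = 0.042), Aldh18a1 by 0.96 (adjusted p = 0.0013) and Atf3, a stress-induced factor, by 1.24, while Chac1, which degrades glutathione, rose by 1.48. The Asns call with miR-22 was lost without healthy replicate 3 (−0.69), untreated replicate 3 (−0.50) or 4 (−0.73), or treated replicate 2 (−0.60) or 3 (−0.59). Atf4 had −0.06 (adjusted p = 0.677) in that comparison too.

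**Figure D4:**
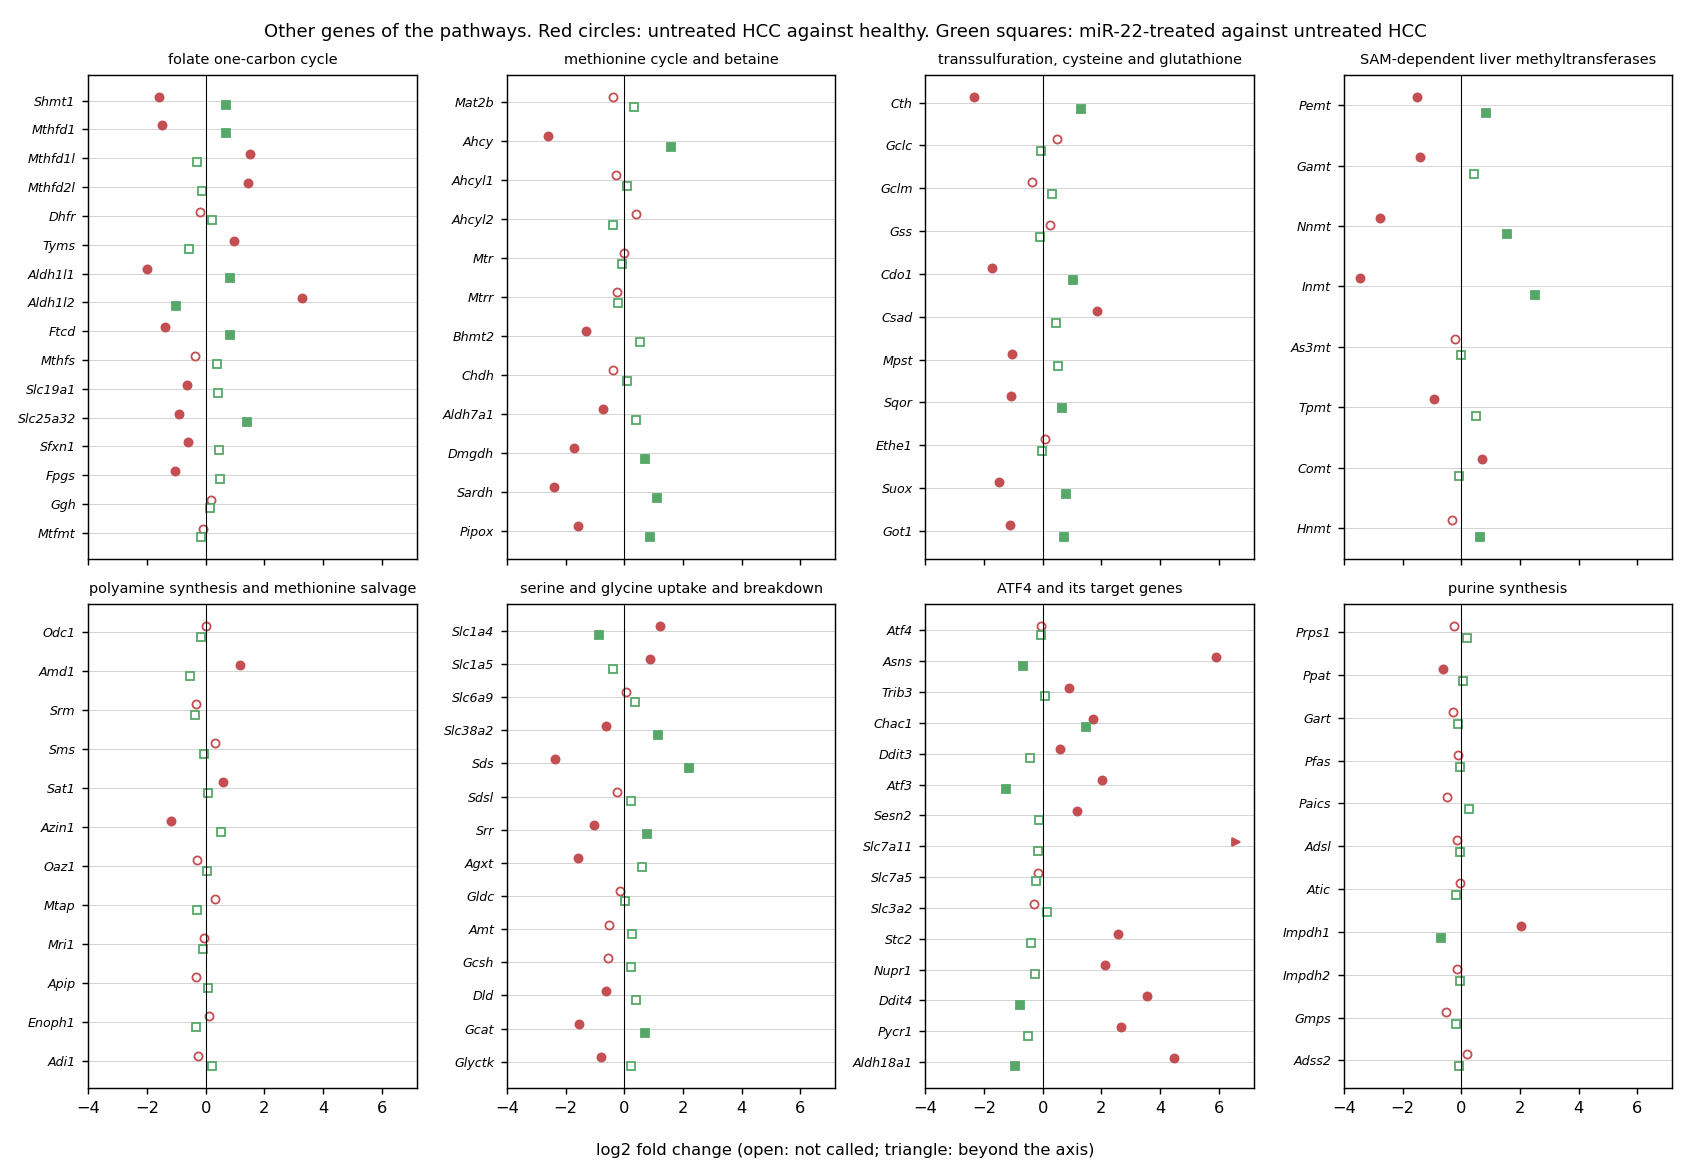
Log2 fold changes of other pathway genes by list, untreated HCC against healthy livers (red circles) and miR-22-treated against untreated HCC (green squares), which share the untreated livers. Filled symbols passed both thresholds, and Slc7a11 lies beyond the axis in the first comparison. Of the ATF4 list 12 of 15 genes rose in untreated HCC, and of the methionine cycle list 6 of 12 fell.

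The counts of several lists depended on the scale. Scaled to the summed hepatocyte markers, untreated HCC against healthy livers gave 2 higher and 4 lower for the methionine cycle list, 4 and 3 for transsulfuration, 7 and 4 for folate, 3 and 3 for serine and glycine, 7 and 0 for polyamines, 4 and 0 for purines, 1 and 4 for the methyltransferases and 13 and 0 for the ATF4 list, where 55.2% of all tested genes were higher and 6.41% lower. With total counts the same order of lists gave 1 and 5, 3 and 6, 6 and 5, 2 and 4, 4 and 1, 2 and 0, 1 and 4, and 12 and 0, where 38.1% of all genes were higher and 9.49% lower. With miR-22, hepatocyte-marker scaling gave 2 higher and 2 lower for the methionine cycle list, 2 and 0 for transsulfuration, 1 and 4 for folate, 2 and 2 for serine and glycine, 0 and 4 for polyamines, 0 and 1 for purines, 2 and 0 for the methyltransferases and 1 and 6 for the ATF4 list, where 4.12% of all genes were higher and 23.2% lower. Of the called genes named for the size of their change, Azin1 and Ppat lost their call in untreated HCC under that scaling and Ppat with total counts.

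Of all tested genes, those whose centred log2 CPM over the 9 livers lay nearest to Mat1a were Slc27a5, of bile acid conjugation, Serpina1b, an α1-antitrypsin gene of a multigene family whose reads may be shared, and Slc47a1, an efflux transporter (root mean square differences 0.07, 0.09 and 0.09 on the log2 scale). Nearest to Mat2a were Jkamp, Magoh and Uchl5 (0.07 each), and nearest to Phgdh were Gm830, Hmgcll1 and Olfml2a (0.23, 0.25 and 0.27). Among the members themselves the nearest pairs were Bhmt with Shmt2 (0.26), Bhmt with Cbs (0.27) and Mat1a with Gnmt (0.37). Phgdh with Psat1 had 0.46. The measure is not scaled to the size of the changes, so genes that change little lie near each other whatever their pattern. Some member counts may hold reads of neighbours, since the libraries do not keep strand: in GENCODE M39 Shmt2 shares 17.7% of its exonic bases with Ndufa4l2, Mat2a 16.9% with Ggcx and 13.9% with Particl, Gnmt 16.9% with Pex6 and 7.67% with Gm65860, Psph 6.32% with Cct6a and Bhmt 3.10% with Gm15622, each on the opposite strand.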

How the data were processed

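Reads came in pairs from non-directional libraries of total RNA, and the authors used Salmon (GRCm39) for quantification, summed transcripts to genes and ran DESeq2, per the labels and the paper's methods. They deposited whole-number counts for 55401 genes and, as signal, the same counts divided by size factors. Multiplied back, the deposited signal returned 100% whole values (within 0.01), 100% equal to the counts. Here the counts were tested with edgeR 4.0.16 in R 4.3.3: TMM, filterByExpr (15717 genes), the two-sided quasi-likelihood F test and 1 fit to all 9 livers without covariates. A gene was called at a Benjamini-Hochberg adjusted p under 0.05 over all tested genes and a fold over 1.5. Every adjusted p in the text is from edgeR unless named. CPM are TMM-normalized, intervals are at the 95% level, and errors are SD over 3 livers or SE of the log2 fold change. The SE is the absolute log2 fold change divided by the square root of the F statistic. Intervals use a t distribution with the residual degrees of freedom of 9 livers in 3 groups. These are fewer than the test uses, so the intervals are wider than its p-values imply. A group with no more than 3 counts per library is at the floor. The common dispersion was 0.0206. The chi-square per degree of freedom between livers of a group was 5.88 to 27.1, above counting noise, so no libraries were merged as duplicates; this does not show separate animals. The members and lists were chosen with earlier results of these data known. Named are all members, of each list the 3 called genes with the largest change in untreated HCC and the 2 with the largest change with miR-22, the genes of a member's step (Mat2b, Ahcy, Bhmt2, Cth, Shmt1, Mthfd2l, Mthfd1l and Atf4), and the 3 nearest genes to Mat1a, Mat2a and Phgdh. A gene that this rule names is not reported here. Adss2 was matched through a synonym. The script was tested on simulated data. Alternatives were DESeq2 1.42.0, limma-trend (limma 3.58.1), other scalings, filters, fits and fold thresholds, and each liver left out in turn. Scaling to 12 summed hepatocyte markers, total-count scaling and left-out livers for the lists and the recovered counts were added after seeing the data. Positions are of GENCODE M39 on GRCm39, matched by gene identifier, and promoter and miRNA sequences are from RefSeq. Values per kilobase use the GENCODE canonical transcript. Figures used Python 3.11.15 and matplotlib 3.10.9.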

Additional observations from a re-analysis of the deposited data

How the results depend on the processing

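The 591 comparisons of a result with an alternative left 551 on the same side of the threshold and in the same direction, took 15 past it, took 9 back and reversed 16. Mat1a, Gnmt, Phgdh and Psat1 kept their calls in all 3 comparisons under every setting that tested them, apart from Psat1 with miR-22 at a fold threshold of 2. Requiring at least 10 counts in every library removed Phgdh, Psat1 and Mthfd2, which left 1 member higher in untreated HCC, 1 higher in miR-22-treated HCC than in healthy livers and 0 lower with miR-22 (beside 20.1%, 13.7% and 5.34% of all genes tested then), by the construction of that filter. That fold threshold left 1 lower with miR-22, 3 lower in untreated HCC (without Bhmt) and 2 lower in miR-22-treated HCC than in healthy livers (without Shmt2), beside 1.76%, 10.7% and 2.63% of all genes. Scaled to the summed hepatocyte markers, an alternative chosen after seeing the data, 2 members were lower in untreated HCC, beside 6.41% of all tested genes, and 4 lower with miR-22, beside 23.2%. Directions turned for Cbs with miR-22 under DESeq2 size factors (−0.0223), upper-quartile scaling (−0.0348), total counts (−0.233), DESeq2 (−0.0250), limma-trend (−0.0331), at least 10 counts (−0.0121), the replicate block (−0.0286) and hepatocyte-marker scaling (−0.385), and without untreated replicate 3 (−0.0698) or treated replicate 2 (−0.224), within a range of −0.224 to 0.200 over all livers left out in turn. They also turned for Cbs in untreated HCC (0.193 with total counts, 0.491 with hepatocyte markers) and in miR-22-treated HCC against healthy livers (0.106 with hepatocyte markers), for Mat2a with miR-22 (−0.120 with total counts, −0.269 with hepatocyte markers) and for Bhmt with miR-22 (−0.0884 with hepatocyte markers). The cause was not tested. Of all genes called in untreated HCC against healthy livers, 55.7% were higher, 80.0% with total counts and 89.6% with hepatocyte markers. With miR-22 these shares were 60.4%, 27.8% and 15.1%, and for miR-22-treated HCC against healthy livers 70.6%, 85.2% and 91.9%. The HCC groups share replicate numbers. With each group centred on its own mean, HCC livers that share a number correlated negatively over genes (−0.116, −0.116 and −0.227). None of these values was positive, so the numbers were not taken as pairs. The mean of 0.0764 for other pairs is no separate baseline, because the centring ties it to the same-number values with the opposite sign. With the replicate block 2 members were higher and 2 lower with miR-22, beside 7.17% and 3.93% of all genes, as without it. Leaving out single livers moved the mean log2 ratio of Mat2a to Mat1a to between −5.80 and −5.67 in healthy livers, −3.40 and −2.94 in untreated HCC, and −4.60 and −4.28 in miR-22-treated HCC. Phgdh, Psat1 and Mthfd2 rest on 5 to 23 counts per healthy liver, so their fold changes are the least precise.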

Other observations

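Markers of other cells were counted in the same livers. The 5 neutrophil markers summed to 1.70 to 4.40 CPM (healthy), 15.8 to 21.2 (untreated HCC) and 14.5 to 22.9 (miR-22-treated HCC), and 3 of the 3 tested rose in untreated HCC, where 22.7% of all tested genes rose and 18.1% fell. Ly6g was at 0 in all healthy and untreated HCC livers. The 5 erythroid markers summed to 113 to 170, 233 to 325 and 212 to 239 CPM, with 4 of 4 tested higher in untreated HCC. The 7 stellate cell and fibroblast markers summed to 309 to 376, 467 to 540 and 436 to 489 CPM, with 3 higher and 2 lower, and the 6 endothelial markers to 329 to 414, 208 to 265 and 276 to 354 CPM, with 0 higher and 3 lower. Macrophage markers (8 genes) summed to 334 to 395, 395 to 430 and 458 to 486 CPM, with 2 higher and 1 lower. T and NK cell markers (7 genes) lay between 5.49 and 9.47 CPM and B cell markers (4 genes) between 2.06 and 4.90 CPM in all 9 livers. In the HCC groups, 3 of 5 cholangiocyte and 3 of 5 proliferating cell markers fell with miR-22, beside 5.47% of all tested genes. Their part in the changes of the serine and methionine genes was not tested.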
